A study of Mus musculus with 8 samples.

Results

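Uroplakins and the keratins of simple epithelia were followed by 15 probe sets of 9 genes, out of 18193 genes named by a single symbol on the Affymetrix Mouse Genome 430 2.0 array. Members were all probe sets whose only gene symbol was one of 5 uroplakins (Upk1a, Upk1b, Upk2, Upk3a and Upk3b, 9 probe sets) or 4 keratins (Krt7, Krt8, Krt18 and Krt19, 6 probe sets) and the rule used gene names only. Kidneys were compared from E18.5 conditional mutant embryos (9 pooled), E18.5 control embryos (14 pooled), E14.5 conditional mutant embryos (17 pooled) and E14.5 control embryos (23 pooled). Mutants carried Lim1flox/lacZ with the Rarb2-Cre transgene, and controls carried Lim1flox/+ with the same transgene, so both genotypes expressed Cre and both held a floxed Lim1 allele. Rarb2-Cre is active in the metanephric mesenchyme, the source of the nephron, whereas the ureteric bud keeps its floxed allele and is heterozygous for Lim1 in the mutant. The background was mixed (129/SvEv, C57BL/6J and SJL/J), and the labels give the sex of the pooled embryos as mixed. Each pool was read on 2 arrays prepared from 1 RNA pool, so the arrays measure technical spread and no pool has a biological replicate.

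Uroplakins are membrane proteins of the urothelium, the lining of the renal pelvis, ureter and bladder. Upk1a and Upk1b are tetraspanins that pair with the single-span partners Upk2 and Upk3a (or Upk3b) and travel together to the apical surface, where they form the rigid plaques that seal the urinary tract. Upk3b is also known from mesothelium. Keratins form filaments from 1 acidic and 1 basic partner: Krt8 (basic) pairs with Krt18 (acidic) in nearly all simple epithelia, and Krt7 (basic) and Krt19 (acidic) mark ductal epithelia, which in the kidney means the ureteric bud, the collecting duct and the urothelium. The ureteric bud gives rise to the collecting duct, the pelvis and the ureter.

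The median signal of the 8 arrays lay between 225 and 243, and the median fold between the 2 arrays of a pool was 1.16 in the E18.5 mutant pool, 1.08 in the E18.5 control pool, 1.09 in the E14.5 mutant pool and 1.11 in the E14.5 control pool. Array 1 of the E18.5 mutant pool stood apart from array 2 in its Actb 5' control probe set (10568 against 4444), and the member probe sets had a median log2 of array 1 over array 2 of -0.14 there, against 0.07 over all probe sets. The stage ratios of Krt7, Krt19, Upk3a and Krt8 and the E18.5 genotype ratios of Krt19 and Krt7 are also given without this array below. So are the E18.5 genotype medians. The other members' ratios that rest on this array are given with both arrays only. The targeted gene, Lhx1 (Lim1), had signals of 459 and 379 in E18.5 mutant, 342 and 382 in E18.5 control, 323 and 290 in E14.5 mutant and 388 and 365 in E14.5 control kidneys with probe set 1421951_at. Probe set 1450428_at gave 296 and 333 in E18.5 mutant, 370 and 352 in E18.5 control, 563 and 554 in E14.5 mutant and 449 and 517 in E14.5 control kidneys. Neither probe set was low in both mutant pools, and since their place relative to the deleted part is not given, they do not check the labels. In whole kidneys a lower signal can come from fewer cells of a type or from less RNA per cell, and these cannot be told apart here.

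Promoters were looked at for Upk3a and Krt7, which passed as higher at E18.5 in both genotypes, and for Krt8 and Krt18, which are neighbours on mouse chromosome 15 with 0 protein-coding genes between them. RefSeq (build GRCm38.p6) gave an entry for 6 of the 9 members: Upk1a, Upk3a, Upk3b, Krt7, Krt8 and Krt18. Upk1b, Upk2 and Krt19 are named only. The 250 bases before the gene's start are printed 5′ to 3′ on the gene's own strand, with the GC box (GGGCGG on either strand) in capitals.
Upk3a, chr15:85016891-85017140, plus strand: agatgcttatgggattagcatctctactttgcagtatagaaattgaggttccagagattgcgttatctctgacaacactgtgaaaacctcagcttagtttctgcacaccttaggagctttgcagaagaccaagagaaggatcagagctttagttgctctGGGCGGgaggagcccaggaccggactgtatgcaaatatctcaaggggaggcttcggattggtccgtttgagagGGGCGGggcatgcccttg
Krt7, chr15:101412153-101412402, plus strand: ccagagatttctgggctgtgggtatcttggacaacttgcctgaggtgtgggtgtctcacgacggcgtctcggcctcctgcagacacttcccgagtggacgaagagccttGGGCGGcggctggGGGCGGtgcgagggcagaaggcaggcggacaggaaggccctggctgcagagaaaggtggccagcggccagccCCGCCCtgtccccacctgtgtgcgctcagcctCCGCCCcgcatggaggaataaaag
Krt8, chr15:102004343-102004592, minus strand: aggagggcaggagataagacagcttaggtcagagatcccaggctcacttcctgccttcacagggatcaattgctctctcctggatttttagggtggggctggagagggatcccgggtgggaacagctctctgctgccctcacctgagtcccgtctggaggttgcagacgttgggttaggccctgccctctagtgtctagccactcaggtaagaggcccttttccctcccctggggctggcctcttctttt
Krt18, chr15:102027966-102028215, plus strand: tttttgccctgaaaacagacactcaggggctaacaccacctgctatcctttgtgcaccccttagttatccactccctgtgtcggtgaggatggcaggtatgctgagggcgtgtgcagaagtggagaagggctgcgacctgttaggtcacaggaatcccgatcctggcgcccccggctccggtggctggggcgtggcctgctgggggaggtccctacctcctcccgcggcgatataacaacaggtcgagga
The Krt7 stretch held 4 GC boxes, the farthest at 141 to 136 and the nearest at 24 to 19 bases before the start, and the Upk3a stretch held 2, at 91 to 86 and 18 to 13 bases. The other 4 matched members had none in this window, and 32.7% of 32841 RefSeq stretches of the same length and position held at least 1. The letters AGATAA, searched as the motif of a GATA factor, stood in Upk3a (188 to 183 bases before the start, opposite strand) and in Krt8 (239 to 234 bases), against 9.99% of all stretches. CCAAT stood in Upk3a alone of the 6 (35 to 31 bases, opposite strand) and in 33.9% of all stretches. None of the 6 held TATAAA (12.4% of all), TGTTTAC (3.17%) or AACCNGGTT (0.241%), the letters searched for a TATA box, a Fox factor and a grainyhead-like factor on both strands, and no 2 of the motifs overlapped. These are matches of letters and no evidence of binding.

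Between stages, 5 of the 9 genes passed as higher at E18.5 in at least 1 genotype. With each gene read by its probe set of highest mean signal (the brightest), the keratins had a higher median ratio than the uroplakins. Upk1b and Upk3b rose by more with their other probe sets than with their brightest. Krt7, Krt19, Upk3a and 1 probe set of Upk1b passed the size criteria in both genotypes, and Krt8 passed in controls. A probe set passed when the ratio of the pool means was at least 2 and exceeded the fold between the arrays of either pool, the higher mean times the ratio was above 100, and both arrays of the higher pool were at or above their own 40th percentile. Of the 15 member probe sets, 4 (of 4 genes) passed as higher in E18.5 mutant over E14.5 mutant kidneys, where 0.722% of all 45037 probe sets did, and 0 passed as lower (0.855% of all). In E18.5 control over E14.5 control kidneys, 7 of 15 probe sets, of 5 genes, passed as higher (2.55% of all) and 0 as lower (1.83% of all). Upk1a, Upk2, Upk3b and Krt18 passed in neither genotype. Arrays of the 2 stages did not overlap for 14 member probe sets on the higher side and 1 on the lower side in mutants, where 26.0% and 23.9% of all probe sets did so, and for 12 and 1 in controls (26.5% and 36.0% of all). Without array 1 of the E18.5 mutant pool the count in mutants was again 4, of the same 4 genes, and the log2 stage ratios were 1.56 for Krt7, 2.31 for Krt19, 1.22 for Upk3a and 0.84 for Krt8 (1.41, 2.14, 1.15 and 0.77 with both arrays). The Actb control, a sign of RNA integrity, had a ratio of its 3' to its 5' probe set of 1.24 to 1.5 at E18.5 and 1.5 to 1.92 at E14.5, and the part of this in the stage ratios was not tested.

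Krt7 had the highest stage ratio of the members in controls. Its signals were 682 and 847 in E18.5 mutant, 1100 and 1249 in E18.5 control, 268 and 307 in E14.5 mutant and 286 and 251 in E14.5 control kidneys. The order of the pools was therefore E18.5 control, E18.5 mutant, then both E14.5 pools, whose arrays overlapped. The ratio was 2.66 in mutants (2.22 to 3.16 over the 4 pairings of single arrays) and 4.37 in controls (3.85 to 4.97), ranges that did not meet.

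Krt19, the smallest of the keratins and one without a tail domain, had the opposite order at E18.5. It gave 661 and 840 in E18.5 mutant, 393 and 430 in E18.5 control, 160 and 180 in E14.5 mutant and 179 and 179 in E14.5 control kidneys. All 4 arrays at E14.5 were below their own 40th percentile, and the 4 arrays at E18.5 were above it. The ratio was 4.42 in mutants (3.68 to 5.25) and 2.30 in controls (2.20 to 2.41). With 1 pool per condition, neither the difference between these ratios nor that for Krt7 was tested.

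**Figure D1:**
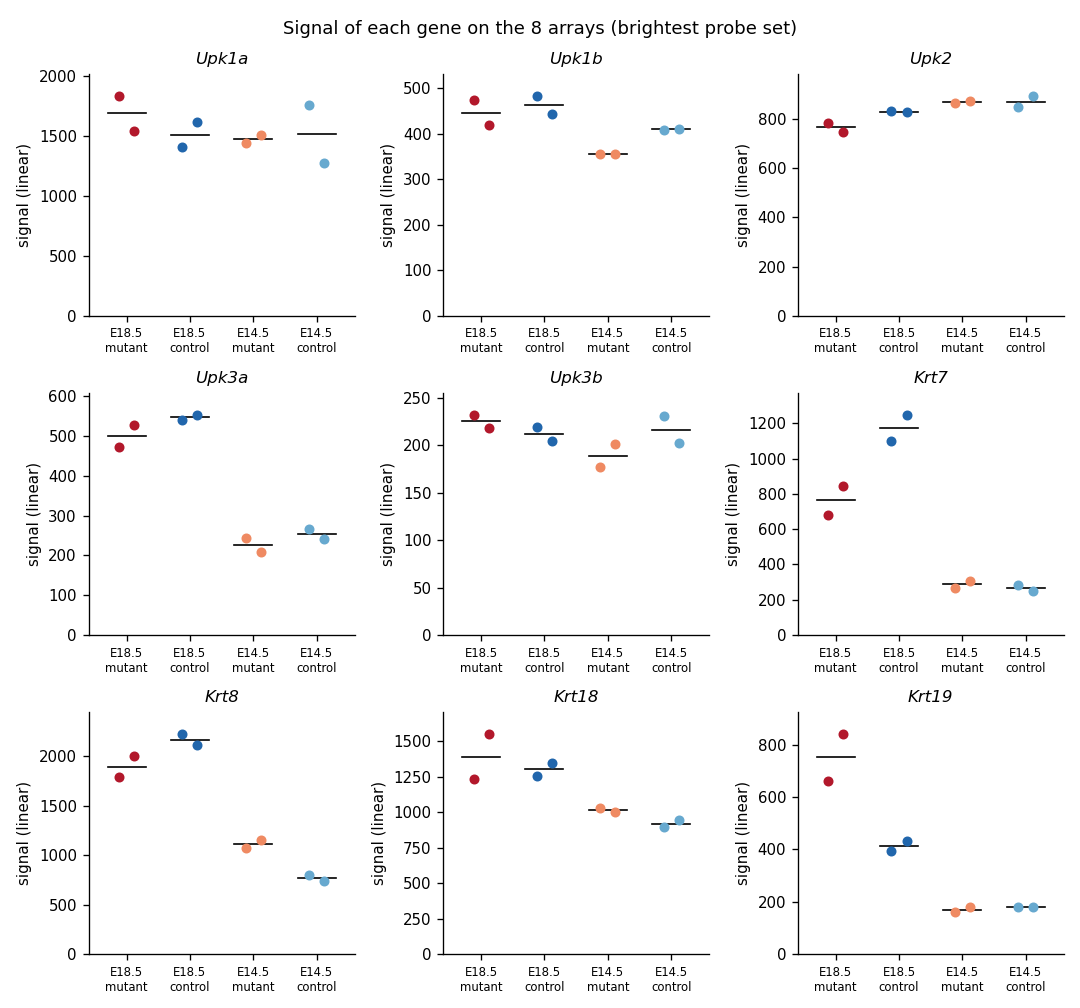
Signal (linear scale, from 0) of each of the 9 genes by its brightest probe set, with 1 point per array and a line at the mean of the 2 arrays of a pool. Krt7, Krt8, Krt19 and Upk3a lie higher at E18.5 than at E14.5 on every array, while Upk1a, Upk2 and Upk3b are nearly level across the 4 pools.

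Krt8 was measured by 3 probe sets with the same order of pools. The brightest, 1420647_a_at, gave 1790 and 1998 in E18.5 mutant, 2224 and 2113 in E18.5 control, 1076 and 1150 in E14.5 mutant and 796 and 741 in E14.5 control kidneys, so the pools did not overlap. The stage ratios of the 3 probe sets were 1.70, 1.69 and 1.67 in mutants, below the criterion of 2, and 2.82, 2.59 and 2.60 in controls. Krt18, the filament partner of Krt8, had smaller ratios. It gave 1230 and 1550 in E18.5 mutant, 1258 and 1348 in E18.5 control, 1032 and 1001 in E14.5 mutant and 894 and 943 in E14.5 control kidneys, with ratios of 1.37 (1.19 to 1.55) in mutants and 1.42 (1.33 to 1.51) in controls. The arrays of the 2 stages did not overlap for Krt18 in either genotype, and the E18.5 mutant and E18.5 control arrays did.

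Upk3a, the single-span partner of Upk1b in the plaque, had 473 and 527 in E18.5 mutant, 541 and 553 in E18.5 control, 244 and 208 in E14.5 mutant and 266 and 241 in E14.5 control kidneys. Its stage ratio was nearly the same in both genotypes, at 2.21 in mutants (1.94 to 2.54) and 2.16 in controls (2.03 to 2.30). Upk2 stood the other way round. It gave 783 and 749 in E18.5 mutant, 832 and 827 in E18.5 control, 864 and 872 in E14.5 mutant and 847 and 895 in E14.5 control kidneys, with ratios of 0.882 (0.858 to 0.906) in mutants and 0.952 (0.924 to 0.981) in controls. Every E18.5 array lay below every E14.5 array, by a margin far under 2-fold. How far the probe sets of Upk2 and Upk1a read their transcripts was not tested. Upk1a, the partner of Upk2, was nearly level in signal. Its signals were 1836 and 1540 in E18.5 mutant, 1408 and 1615 in E18.5 control, 1442 and 1504 in E14.5 mutant and 1754 and 1273 in E14.5 control kidneys, and the 2 arrays of the E14.5 control pool differed by more than any pair of pool means compared. The E18.5 mutant arrays lay above the E14.5 mutant arrays, with a ratio of 1.15 (1.02 to 1.27), and in the other 3 comparisons the arrays overlapped.

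The 4 probe sets of Upk1b disagreed on the size of the change. Probe set 1439760_x_at gave 239 and 281 in E18.5 mutant, 421 and 455 in E18.5 control, 129 and 125 in E14.5 mutant and 121 and 132 in E14.5 control kidneys, ratios of 2.05 (1.85 to 2.25) in mutants and 3.47 (3.20 to 3.77) in controls. The brightest, 1457065_at, gave 474 and 419 in E18.5 mutant, 484 and 443 in E18.5 control, 355 and 355 in E14.5 mutant and 409 and 411 in E14.5 control kidneys, ratios of 1.26 and 1.13. The other 2, 1435831_at and 1455464_x_at, lay between, at 1.60 and 1.53 in mutants and 1.90 and 1.76 in controls. All 4 were higher at E18.5 in both genotypes with no overlap of arrays, and 1439760_x_at was below the 40th percentile on all 4 arrays at E14.5. The sequences that these probe sets target were not looked at here, so which of them reads Upk1b most closely was not tested.

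Upk3b was also read differently by its 2 probe sets. The brightest, 1434237_at, gave 232 and 218 in E18.5 mutant, 219 and 204 in E18.5 control, 177 and 201 in E14.5 mutant and 231 and 202 in E14.5 control kidneys, and the 2 control pools overlapped. Probe set 1454881_s_at gave 206 and 208 in E18.5 mutant, 187 and 181 in E18.5 control, 105 and 110 in E14.5 mutant and 127 and 123 in E14.5 control kidneys. Its ratio was 1.93 in mutants (1.88 to 1.98) and 1.47 in controls (1.42 to 1.51), and all 4 E14.5 arrays were below the 40th percentile.

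**Figure D2:**
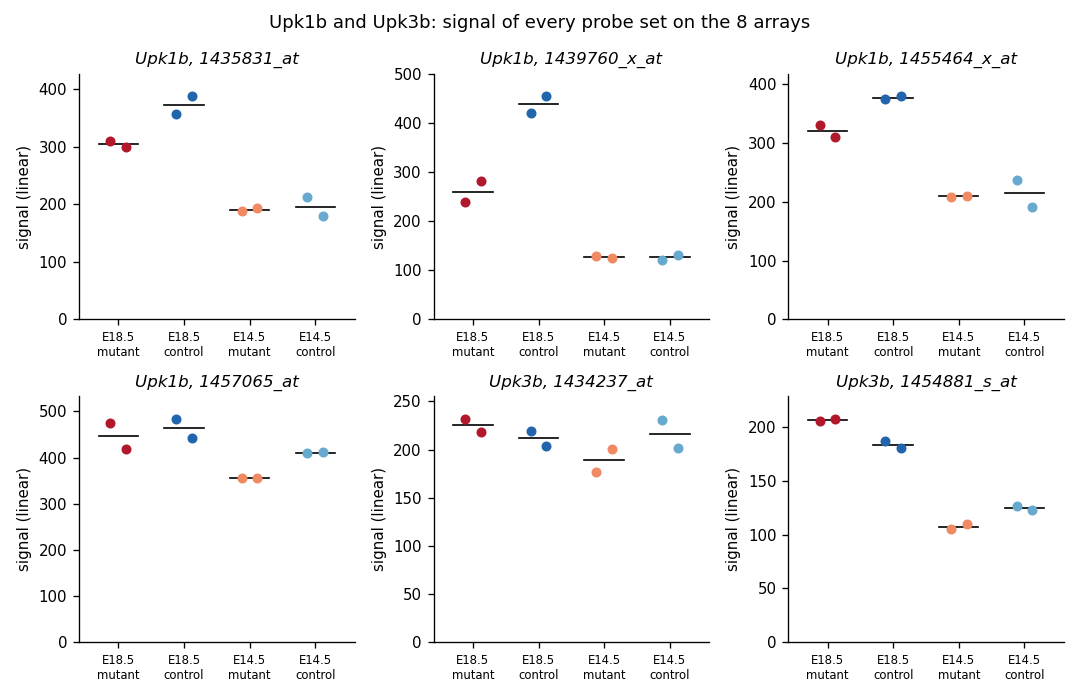
Signal (linear scale, from 0) of the 4 Upk1b and 2 Upk3b probe sets, with 1 point per array and a line at the pool mean. Upk1b 1439760_x_at separates the stages widely and 1457065_at little, and Upk3b 1454881_s_at separates them in both genotypes, while 1434237_at overlaps between the stages in controls.

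The stage effect common to both genotypes was tested with limma on the 4 pool means of log2 signal. Over 27022 probe sets, 928 (3.43%) were higher and 1390 (5.14%) lower at E18.5 at a Benjamini-Hochberg adjusted p under 0.05. Of the 14 member probe sets tested, 9 rose and 0 fell. Upk3a rose by 1.13 on the log2 scale (SE 0.112, limma adjusted p = 0.0183) and Krt7 by 1.76 (SE 0.197, limma adjusted p = 0.0199). Krt19 rose by 1.66 (SE 0.238, limma adjusted p = 0.0276) and Upk1b 1439760_x_at by 1.41 (SE 0.205, limma adjusted p = 0.0283). These 2 probe sets were below the 40th percentile on all E14.5 arrays and met the minimum mean signal of the fit through their E18.5 signal. With no minimum signal their limma adjusted p were 0.0263 and 0.0276, and with 50 units added to each signal 0.0339 and 0.0366. The rest that passed were Upk1b 1435831_at and 1455464_x_at (limma adjusted p of 0.0322 and 0.0366) and the 3 Krt8 probe sets (0.0359 to 0.0387). Krt18 did not pass (log2 0.47, SE 0.113, limma adjusted p = 0.0719), nor did the brightest Upk1b probe set (0.25, limma adjusted p = 0.245), Upk2 (-0.13, limma adjusted p = 0.538), Upk1a (0.10, limma adjusted p = 0.635) or Upk3b 1434237_at (0.11, limma adjusted p = 0.636). Upk3b 1454881_s_at was under the minimum signal, and in the fit with no minimum it rose by 0.75 on the log2 scale (limma adjusted p = 0.0481). The calls of Upk3a, Krt7 and Upk1b 1439760_x_at held with any single array left out. Without array 2 of the E18.5 control pool only those 3 passed, and without array 1 of the E14.5 mutant pool Krt19 and Upk1b 1435831_at passed beside them. The fit left 1 residual degree of freedom per probe set, from the departure of the 4 pools from an additive model. limma combined it with a variance shared over all probe sets, worth 3.94 degrees of freedom. With 1 pool per condition, the p-values do not measure the spread between pools of a condition.

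**Figure D3:**
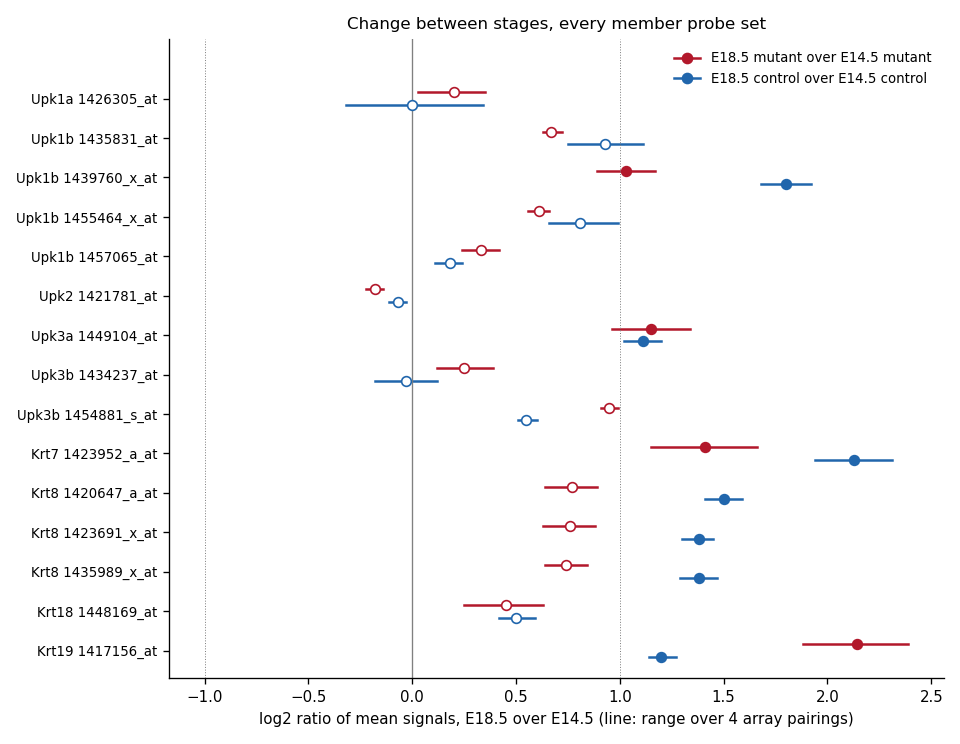
Log2 ratio of mean signals, E18.5 over E14.5, for the 15 member probe sets in mutants (red) and in controls (blue), with lines for the range over the 4 pairings of single arrays. Filled points passed the size criteria and dotted lines mark a 2-fold ratio. Krt7, Krt8 and Upk1b 1439760_x_at lie farther right in controls and Krt19 farther right in mutants.

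By gene, the median log2 ratio of the 4 keratins was 1.09 in mutants (0.90 to 1.28) and 1.35 in controls (1.31 to 1.39), against 0.02 and -0.01 over all genes. That of the 5 uroplakins was 0.25 in mutants (0.12 to 0.39) and 0.00 in controls (-0.04 to 0.15). The uroplakin median reads Upk1b and Upk3b by their brightest probe sets. Averaged over a gene's probe sets it was 0.60 in mutants and 0.26 in controls.

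Between genotypes, no member passed the size criteria at either stage. At E18.5, 0 of 15 probe sets passed as higher in mutants (0.0933% of all probe sets) and 0 as lower (1.27% of all). At E14.5, 0 of 15 passed as higher (0.00222% of all) and 0 as lower (0.0733% of all). The uroplakin median log2 ratio of mutant over control at E18.5 was -0.05 (-0.07 to 0.10), and at E14.5 it was -0.17 (-0.21 to -0.04), against 0.03 and 0.01 over all genes. The keratin median was -0.05 (-0.19 to 0.07) at E18.5, a value that was 0.10 after quantile normalization, and 0.12 (0.06 to 0.19) at E14.5.

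Without array 1 of the E18.5 mutant pool the E18.5 keratin median was 0.07 and the uroplakin median -0.05.

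The keratin median at E18.5 covered genes that differed in opposite directions. Krt19 was higher in E18.5 mutant than in E18.5 control kidneys by 1.82-fold (1.54 to 2.14), with no overlap of arrays. It fell short of the ratio criterion only. Without array 1 of the mutant pool its log2 ratio was 1.03 (0.87 with both arrays) and it passed. Array 1 held the lower Krt19 signal of that pool (661 against 840 on array 2), so leaving out array 2 instead moves the ratio away from the criterion. Krt7 differed the other way, at 0.651 of the control signal (0.546 to 0.770), also with no overlap. Its log2 ratio was -0.62, or -0.47 without array 1 of the mutant pool. Krt8 was at 0.873, 0.852 and 0.867 of the control signal with its 3 probe sets and Krt18 at 1.07 (0.913 to 1.23). The basic keratins Krt7 and Krt8 thus had lower signals in the E18.5 mutant pool and the acidic Krt19 a higher one, while Krt18 arrays overlapped.

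Among uroplakins at E18.5, Upk1b 1439760_x_at had the widest genotype difference, at 0.594 of the control signal (0.525 to 0.669). The other Upk1b probe sets were at 0.818, 0.850 and 0.964 of it, the last with overlapping arrays. Upk3a was at 0.914 (0.854 to 0.975) and Upk2 at 0.924 (0.900 to 0.947), small differences with no overlap. Upk1a (1.12) and the brightest Upk3b probe set (1.06) overlapped. In all, 2 member probe sets lay wholly above and 9 wholly below the control arrays at E18.5, where 24.5% and 17.6% of all probe sets did.

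At E14.5 the 4 probe sets of Krt8 and Krt18 lay wholly above the control arrays. Krt8 was at 1.45 (1.35 to 1.55), 1.31 (1.24 to 1.38) and 1.35 (1.26 to 1.45) times the control signal and Krt18 at 1.11 (1.06 to 1.16). Krt7 (1.07) and Krt19 (0.950), the keratins with the widest E18.5 differences, overlapped. The 3 probe sets that lay wholly below the control arrays were the brightest of Upk1b (0.866) and both of Upk3b (0.872 and 0.856), and the other 8 overlapped. Over all probe sets, 17.4% lay wholly above and 19.7% wholly below.

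**Figure D4:**
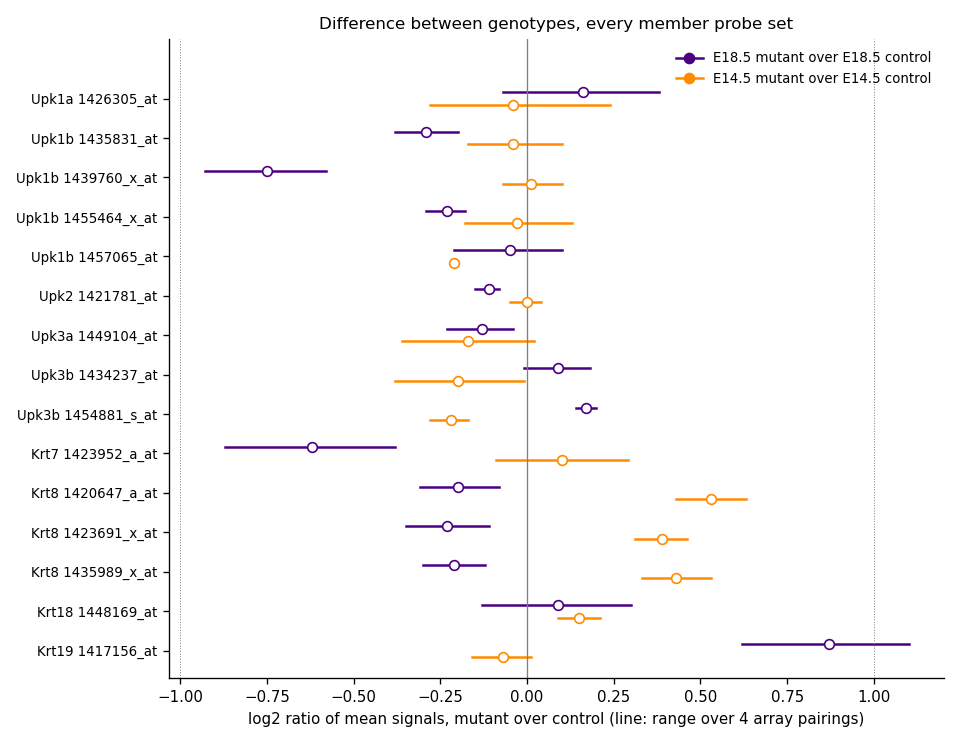
Log2 ratio of mean signals, mutant over control, for the 15 member probe sets at E18.5 (purple) and E14.5 (orange), with lines for the range over the 4 pairings of single arrays and dotted lines at a 2-fold ratio. No point is filled, since none passed the size criteria. Krt19 lies farthest right and Krt7 and Upk1b 1439760_x_at farthest left at E18.5, and the 3 Krt8 probe sets lie on opposite sides of 0 at the 2 stages.

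In the limma fit the genotype effect common to both stages passed for 0 of 27022 probe sets in either direction (0% higher and 0% lower), with 1042 at an unadjusted p under 0.05. None of the 14 member probe sets passed, and 0 of 14 had an unadjusted p under 0.05. With all 8 arrays and the pool as a random block, 23 probe sets were higher and 49 lower, none of them a member, and 1 member had an unadjusted p under 0.05. The correlation between arrays of a pool was estimated there at -0.0441, so arrays of 1 RNA pool counted as nearly separate samples. The widest member effects were those of Krt19 (log2 0.39, SE 0.238), Upk1b 1439760_x_at (-0.37, SE 0.205) and Krt7 (-0.26, SE 0.197). An effect confined to 1 stage is not what this fit tests, and it could not be tested with 1 pool per condition.

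Other genes of the urothelium and its surroundings were taken from lists of markers. Of 13 measured genes for urothelial regulators and adhesion, 0 passed between genotypes at either stage, and the median log2 ratio at E18.5 was 0.14 and at E14.5 0.04. Epcam, an epithelial adhesion molecule, gave 2021 and 2443 in E18.5 mutant, 2400 and 2443 in E18.5 control, 1127 and 867 in E14.5 mutant and 909 and 892 in E14.5 control kidneys. It rose with stage by 2.24-fold in mutants and 2.69-fold in controls, as Krt7, Krt19 and Upk3a did. Cdh1 (E-cadherin) and Cldn7 (a claudin of tight junctions) passed in mutants and not in controls, at 2.18-fold and 2.23-fold against 1.52-fold and 1.73-fold in controls, a difference that was not tested.

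A pair of genes of this list, chosen here after their values were seen, was among those with the same order of pools at E18.5 as Krt19. Cldn4, a claudin of the collecting duct and urothelium, gave 728 and 820 in E18.5 mutant and 396 and 389 in E18.5 control kidneys, a ratio of 1.97 (1.84 to 2.11). Foxa1, a transcription factor of endodermal and urothelial epithelium, gave 296 and 330 in E18.5 mutant and 166 and 170 in E18.5 control kidneys, a ratio of 1.86 (1.74 to 1.99), with both control arrays below the 40th percentile. Neither passed the ratio criterion, and at E14.5 their ratios were 1.15 and 0.926 with overlapping arrays. Others of the same list lay on the opposite side at E18.5 with no overlap, namely Pparg (0.790), Cdh1 (0.855), Psca (0.883) and Trp63 (0.923), all regulators or surface proteins of urothelium or other epithelia.

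Among the other keratins, 0 of 14 passed in any of the 4 comparisons. Krt5, a keratin of basal urothelial cells, was near the 40th percentile, at 255 and 206 in E18.5 mutant and 194 and 203 in E18.5 control kidneys. Krt20, a keratin of mature umbrella cells, was below the 40th percentile on all 8 arrays. Of 11 genes that anchor or link keratin filaments (desmosomal proteins and plakins), 0 passed in any comparison, and the brightest, Jup, gave 1241 and 1274 in E18.5 mutant and 1166 and 1292 in E18.5 control kidneys.

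Of 16 measured tetraspanins other than Upk1a and Upk1b, 0 passed between genotypes and 2 in mutants and 3 in controls were higher at E18.5. Tspan8 rose by 5.15-fold in mutants and 4.16-fold in controls and Cd9 by 2.41-fold and 2.89-fold, more than either uroplakin tetraspanin by its brightest probe set. The E14.5 signals of Tspan8 were near the 40th percentile (198 and 150 in mutant, 179 and 211 in control kidneys), which limits its ratios. Upk1b 1439760_x_at, at 3.47-fold in controls, rose by more than Cd9 there. Tspan4 (2.15-fold) passed in controls. The brightest of the list, Cd81 and Tspan3, passed in no comparison.

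Some markers of neighbouring tissue passed between stages, and most proximal tubule genes passed between genotypes at E18.5. Of 10 smooth muscle genes of the ureter and pelvis, 0 passed between genotypes, 3 in mutants and 4 in controls were higher at E18.5, and 1 (Actg2, an enteric actin) was lower in controls. The median log2 stage ratio of the list was 0.12 in mutants and 0.06 in controls. Its summed signal was 8214 and 8297 in E18.5 mutant, 7823 and 7924 in E18.5 control, 4328 and 4105 in E14.5 mutant and 4033 and 4068 in E14.5 control kidneys. The sum was higher at E18.5, mostly through Acta2, with 3878 and 3834 in E18.5 mutant, 3809 and 3845 in E18.5 control, 1361 and 1190 in E14.5 mutant and 1252 and 1443 in E14.5 control kidneys, and Tagln, with ratios of 3.93 in mutants and 4.07 in controls. The part of muscle in the keratins' stage difference was not tested. Of 10 proximal tubule genes, 8 passed as lower in E18.5 mutant kidneys, with a median log2 ratio of -4.15 and a summed signal of 2303 and 2359 in E18.5 mutant and 22375 and 23351 in E18.5 control kidneys. This list moved with genotype in the same pools as Krt19 and Krt7, and its part in their differences was not tested.

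Within the ureteric bud and collecting duct list, 1 of 14 genes passed between genotypes at E18.5. This was Aqp2, the water channel of collecting duct principal cells, at 281 and 296 in E18.5 mutant and 2659 and 2632 in E18.5 control kidneys, a ratio of 0.109. Calb1, a marker of the distal nephron and ureteric bud, gave 2276 and 2552 in E18.5 mutant and 2307 and 2264 in E18.5 control kidneys, and Wnt7b, a signal of the ureteric stalk, gave 1024 and 942 in E18.5 mutant and 896 and 865 in E18.5 control kidneys. Neither passed. Of 9 genes of mesothelium, a tissue in which Upk3b is known, 1 passed. This was Gpm6a, at 0.274 of the control signal at E18.5. Msln, which defines mesothelium, gave 284 and 238 in E18.5 mutant, 234 and 185 in E18.5 control, 254 and 244 in E14.5 mutant and 262 and 236 in E14.5 control kidneys, close to the 40th percentile of the arrays. The brightest of this list, Aldh1a2 and Wt1, are also genes of kidney mesenchyme and passed in no comparison.

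**Figure D5:**
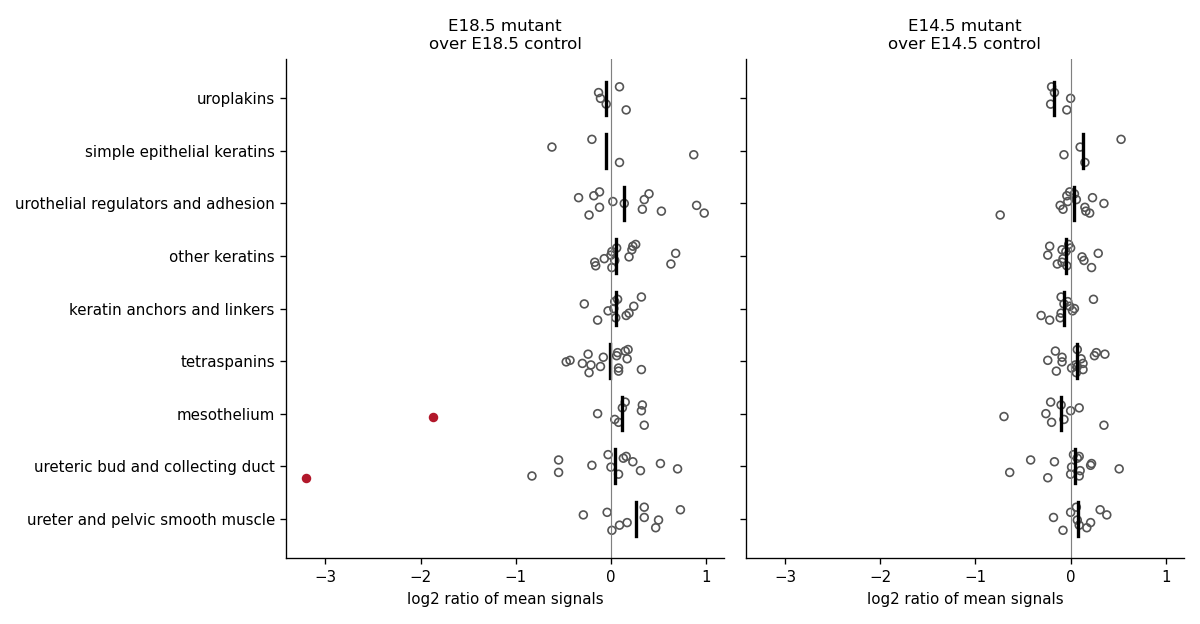
Log2 ratio of mean signals, mutant over control, at E18.5 (left) and E14.5 (right), where each point is 1 gene (brightest probe set) with a bar at each list's median. Red points passed the size criteria. In the 9 lists drawn, which leave out those of nephron, gut, liver, adrenal and gonad genes, these are Gpm6a and Aqp2 at E18.5 and none at E14.5. The medians of the uroplakins and of the keratins lie between -0.17 and 0.12.

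The genes whose pattern over the 4 pools was closest to that of Upk3a and Krt19, the uroplakin and the keratin with the widest range of pool means by their brightest probe sets, were found by the distance between centred log2 profiles over 13438 genes. For Upk3a (range 1.27 on the log2 scale) they were Ndufa4l2 (distance 0.113), Irgm1 (0.121), Col4a2 (0.138), Helz2 (0.166) and H2-D1 (0.183). For Krt19 (range 2.14) they were Apela (0.255), Fxyd4 (0.279), Sparcl1 (0.327), Ltbp4 (0.361) and Spink8 (0.396). Apela, which encodes a secreted peptide of the apelin receptor, had pool means of 723.7 in E18.5 mutant, 343.1 in E18.5 control, 178.8 in E14.5 mutant and 157.8 in E14.5 control kidneys. Fxyd4, a regulator of the sodium pump known from the collecting duct, had 1289 in E18.5 mutant, 928 in E18.5 control, 339 in E14.5 mutant and 362.6 in E14.5 control kidneys. These are likenesses over 4 points that share their pools, and no test was made of them.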

How the data were processed

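Total RNA of whole kidneys was labelled with biotin and hybridised to Affymetrix Mouse Genome 430 2.0 arrays, with 2 arrays a pool. The authors scaled the scans in Microarray Suite 5.0, normalized the arrays to an invariant set of probes in DNA-Chip Analyzer (dChip) and deposited 1 signal intensity per probe set and array (linear, not log). Detection calls were not used here, so a minimum of the array's 40th percentile replaced them. Of 45101 probe sets, 64 controls were left out, 34945 had 1 gene symbol, 932 several and 9160 none. Of those with 1 symbol, 34741 were matched by gene ID to the current symbol. The probe set with the highest mean stood for its gene. Size criteria followed those of the study (ratio of at least 2, above the fold between arrays, signal times ratio above 100), and errors of ratios are ranges over the 4 pairings of single arrays. limma 3.58.1 in R 4.3.3 was fitted to pool means of log2(signal + 1) with stage and genotype as additive terms, over probe sets with a mean of at least 187.7, and adjusted p under 0.05 was called. Both kinds of call were tested on simulated data. The arrays limit the precision by their number. In the main fit the number of an array was not used to pair samples across pools, and whether it marks shared processing was not tested. Genes were named by rule (all members, Lhx1, the 2 brightest genes of each list and those farthest past the criteria between genotypes, and the 5 genes most like Upk3a and Krt19), and not all of these are described. The other genes of the lists were named after their values were seen. Members and lists were chosen with earlier results of these data known. Analyses used Python 3.11.15.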

Additional observations from a re-analysis of the deposited data

Results flagged for a closer look

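Krt8 differed from controls in opposite directions at the 2 stages, on every array and with each of its 3 probe sets. The ratio of mutant over control at E18.5 and then at E14.5 was 0.873 and 1.45 with probe set 1420647_a_at, 0.852 and 1.31 with 1423691_x_at, and 0.867 and 1.35 with 1435989_x_at. These probe sets read 1 transcript and are not independent. Upk3b probe set 1454881_s_at differed the other way, with 1.13 at the later and 0.856 at the earlier stage, with E14.5 signals below the 40th percentile of each array. With 1 pool per condition the difference between stages was not tested in either gene.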

How the results depend on the processing

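Over 9 member genes, 56 of 56 alternatives kept the sign of a ratio that had passed the size criteria. Passing required a ratio of at least 2 and above the fold between arrays, so a change of sign was hardly possible there. Over all member ratios, 266 of 288 alternatives kept the sign. The other 22 had the opposite sign or a log2 ratio of 0 with or without the alternative, and the E18.5 keratin and uroplakin medians, mutant over control, changed sign under some settings given below. No result that had passed a test or the criteria changed direction, which their selection for passing made likely beforehand. A ratio of at least 1.5 in place of 2 gave 1 member probe set higher (Krt19) and 2 lower (of Upk1b and Krt7) in E18.5 mutant over control kidneys, and 10 higher in E18.5 over E14.5 mutant kidneys, where 50 units added to each signal gave 2 (Krt7 and Krt19). With quantile normalization the keratin median at E18.5, mutant over control, was 0.10. Averaging over a gene's probe sets gave uroplakin medians of -0.07 at E14.5, mutant over control, of 0.60 between stages in mutants and of 0.26 in controls. The keratin median between stages in controls was 1.30 with quantile normalization, 1.40 with median scaling, 1.23 with 50 units added and 1.31 over all probe sets.

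With the 8 arrays and the pool as a random block, limma called 4619 probe sets higher and 4178 lower for stage and 23 higher and 49 lower for genotype. With the array number as a replicate block as well these were 3956 and 3769 for stage and 1 and 11 for genotype. The deviations of array 1 from its pool mean correlated between pools at -0.46 to 0.42. The E14.5 mutant pool correlated negatively with each other pool (-0.28, -0.46 and -0.28), and the remaining pairs were positive (0.4, 0.42 and 0.08). Whether arrays of different pools shared processing, by the same number or by another pairing, was not tested. The ranges over pairings of single arrays do not take it into account. Both fits called 11 of 14 member probe sets for stage, the same 9 with Krt18 and the brightest Upk1b probe set added, and treat arrays of 1 pool as samples.

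Leaving out each array in turn gave 0 to 1 member probe sets higher and 0 to 0 lower at E18.5, mutant over control, 3 to 4 higher between stages in mutants and 7 to 8 in controls. limma called 3 to 10 member probe sets, 379 to 2054 probe sets higher and 657 to 2093 lower for stage, and 0 to 2 higher and 0 to 58 lower for genotype. The lowest stage counts came without array 2 of the E18.5 control pool (3 members) and the next without array 1 of the E14.5 mutant pool (5 members, 567 higher and 840 lower in all), the highest without array 1 of the E18.5 mutant pool (10 members), and the genotype calls without array 2 of that pool. Uroplakin medians ranged from -0.11 to 0.03 at E18.5 and -0.24 to -0.07 at E14.5, mutant over control, and from 0.17 to 0.33 in mutants and -0.03 to 0.17 in controls between stages. Keratin medians ranged from -0.18 to 0.07, 0.08 to 0.16, 0.97 to 1.20 and 1.32 to 1.38 in the same order. The cause of these shifts was not tested. Signals near the 40th percentile, such as those of Krt19 and Upk1b 1439760_x_at at E14.5, limit the ratios that use them.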

Other observations

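Filament proteins outside the keratins did not pass the size criteria in any of the 4 comparisons (0 of 8 genes). Vim, the intermediate filament of mesenchyme, gave 4128 and 3820 in E18.5 mutant, 4416 and 3829 in E18.5 control, 4302 and 3734 in E14.5 mutant and 4104 and 4275 in E14.5 control kidneys, and all pools overlapped. Among genes of gut and liver, Alb, the main serum protein, was higher in E18.5 mutant than in E18.5 control kidneys (648 and 803 against 344 and 370, a ratio of 2.03), while Afp, the fetal serum protein, and Vil1, a brush border protein, were lower (366 and 430 against 2028 and 1858, and 109 and 109 against 544 and 624). Of 7 adrenal and gonad genes measured, 0 passed in any comparison. Of 4 podocyte genes measured, Synpo passed as lower in E18.5 mutant kidneys, at 208 and 254 against 590 and 556 in E18.5 control kidneys. Podxl was at 0.52 of the E18.5 control signal (0.494 to 0.548) with no overlap, short of the ratio criterion. Col4a3 gave 199 and 194 in E18.5 mutant and 256 and 265 in E18.5 control kidneys, and the Nphs1 arrays overlapped (0.963).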
